A study of Mus musculus with 12 samples.

Results

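Intermediate progenitors are the dividing daughter cells of radial glia that make most projection neurons of the cerebral cortex. The 6 genes described here, Eomes, Insm1, Sstr2, Btg2, Gadd45g and Mfng, are genes known from these cells. They were taken by name, with Ensembl identifiers mapped to symbols, and are 6 of the 50600 identifiers in the count tables. Each name matched 1 identifier, and all 6 passed the filter on low counts. RNA was measured in the cerebral cortex of untreated C57BL/6 mice at embryonic days 11, 13 and 17 (E11, E13, E17) and on postnatal day 1 (P1). There were 3 libraries per age, called A, B and C, and each held the poly(A)+ RNA of 1 cortex from 1 embryo or pup. The 3 animals of an age came from 3 litters, so the spread between libraries of an age includes differences between litters. The labels name no genotype, agent or transgene.

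In the ventricular zone of the developing cortex, radial glia divide and give rise to intermediate progenitors, which move to the subventricular zone, divide again and then produce neurons. The transition is tied to falling Pax6 and rising Eomes (also called Tbr2), and young neurons then switch on Tbr1. Notch signaling keeps radial glia in the progenitor state, while proneural factors such as Neurog2 switch on Notch ligands and the genes of the next cell state. Eomes is a T-box transcription factor, and Insm1 is a zinc finger repressor that promotes the formation of these cells. Btg2 is an antiproliferative protein known from progenitors that are about to make neurons. Gadd45g is a small stress and growth arrest protein, Mfng is a fringe glycosyltransferase that modifies Notch receptors, and Sstr2 is a receptor for the peptide somatostatin.

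The stretch of 250 bases before the start of the gene is shown for the 4 members whose promoter RefSeq's table holds (GRCm38.p6), because it sets the genes side by side as sequences and not only as levels. Insm1 and Mfng are the other two. Each is written 5′ to 3′ on the strand of the gene, and capitals mark the letters of the motifs found: E-box (CANNTG), cAMP response element (TGACGTCA), TATA box (TATAAA) and CCAAT box (CCAAT). The proneural form of the E-box (CAGATG) and the core of a T-box site (AGGTGT) were searched as well, and both strands were read for each motif. The first is 1 of the forms that the E-box pattern takes in.
Eomes, chr9:118477939-118478188, plus strand: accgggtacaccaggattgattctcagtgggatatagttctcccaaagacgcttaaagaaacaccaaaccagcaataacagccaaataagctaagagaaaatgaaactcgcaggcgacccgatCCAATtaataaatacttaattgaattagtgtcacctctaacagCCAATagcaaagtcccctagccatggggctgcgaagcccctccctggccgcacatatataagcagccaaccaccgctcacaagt
Sstr2, chr11:113619077-113619326, plus strand: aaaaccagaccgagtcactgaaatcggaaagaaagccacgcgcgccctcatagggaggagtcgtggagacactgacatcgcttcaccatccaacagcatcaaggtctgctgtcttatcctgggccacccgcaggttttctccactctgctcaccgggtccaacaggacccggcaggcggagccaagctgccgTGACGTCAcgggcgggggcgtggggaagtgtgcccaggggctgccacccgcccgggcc
Btg2, chr1:134079156-134079405, minus strand: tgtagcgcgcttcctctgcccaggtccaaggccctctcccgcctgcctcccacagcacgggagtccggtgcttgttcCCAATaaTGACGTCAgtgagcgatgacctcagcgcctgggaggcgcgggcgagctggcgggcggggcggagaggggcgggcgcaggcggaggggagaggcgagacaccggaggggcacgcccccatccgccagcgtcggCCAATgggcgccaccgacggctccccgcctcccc
Gadd45g, chr13:51846425-51846674, plus strand: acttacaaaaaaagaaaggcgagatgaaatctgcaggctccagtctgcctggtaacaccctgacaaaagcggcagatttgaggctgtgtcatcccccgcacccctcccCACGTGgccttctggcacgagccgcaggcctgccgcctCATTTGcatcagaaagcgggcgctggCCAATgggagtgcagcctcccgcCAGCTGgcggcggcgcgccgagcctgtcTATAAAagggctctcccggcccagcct

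The 4 stretches differed in composition and in motifs. The G and C share was 46.4% for Eomes, 63.6% for Sstr2, 73.2% for Btg2 and 62% for Gadd45g, against a median of 52% over 27025 genes. Sstr2 and Btg2 each held the full cAMP response element, with its letters 58 to 51 and 166 to 159 bases before the start. These 8 letters were in 1.62% of all 27025 stretches of the same length. Btg2 also held 2 CCAAT boxes, and Eomes held 2, at 127 to 123 and 84 to 80 bases before its start. The CCAAT box was in 34.5% of all stretches. Gadd45g held 3 E-boxes, a CCAAT box, and a TATA box 27 to 22 bases before the start. E-boxes were in 66% of all stretches and the TATA box in 13%. Only the letters TATAAA counted as a TATA box, so other forms of it in any of the 4 stretches were not marked. The proneural E-box and the T-box core, in 14.5% and 12% of all stretches, were not in these 4 windows. Such matches describe the letters of a window and do not show that a factor binds there.

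The members had their highest mean at E13, and each was lower at P1 than at E13. All 6 differed across the 4 ages in edgeR's quasi-likelihood test (adjusted p from 3.51e-12 for Gadd45g to 1.28e-05 for Sstr2), as did 90.2% of the 17847 genes tested. Levels are CPM, read counts scaled to a common library total, given as mean ± SD over n = 3 libraries, and log2 fold changes are given with the standard error (SE) of the fit. Each p was adjusted in edgeR by the Benjamini-Hochberg method over the 17847 genes, and a gene is said to rise or fall where that value is under 0.05. From E11 to E13, 4 of 6 members rose and none fell, where 22.6% of all tested genes rose and 17.5% fell. Of the genes called in this interval 56.4% were higher, against 47.3% with upper-quartile scaling. From E13 to E17, 5 of 6 fell and none rose, where 37.0% of all tested genes fell and 36.8% rose. From E17 to P1 all 6 fell, where 25.9% of all tested genes fell and 24.0% rose. From E11 to P1, 4 of 6 fell and none rose, where 41.8% of all tested genes fell and 40.5% rose. The members' median log2 fold change was 1.23, -1.89, -1.38 and -2.83 in these 4 comparisons, and that of all tested genes was 0.00, -0.04, 0.00 and -0.04. In whole tissue, fewer cells of a type and less RNA per cell cannot be told apart.

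**Figure D1:**
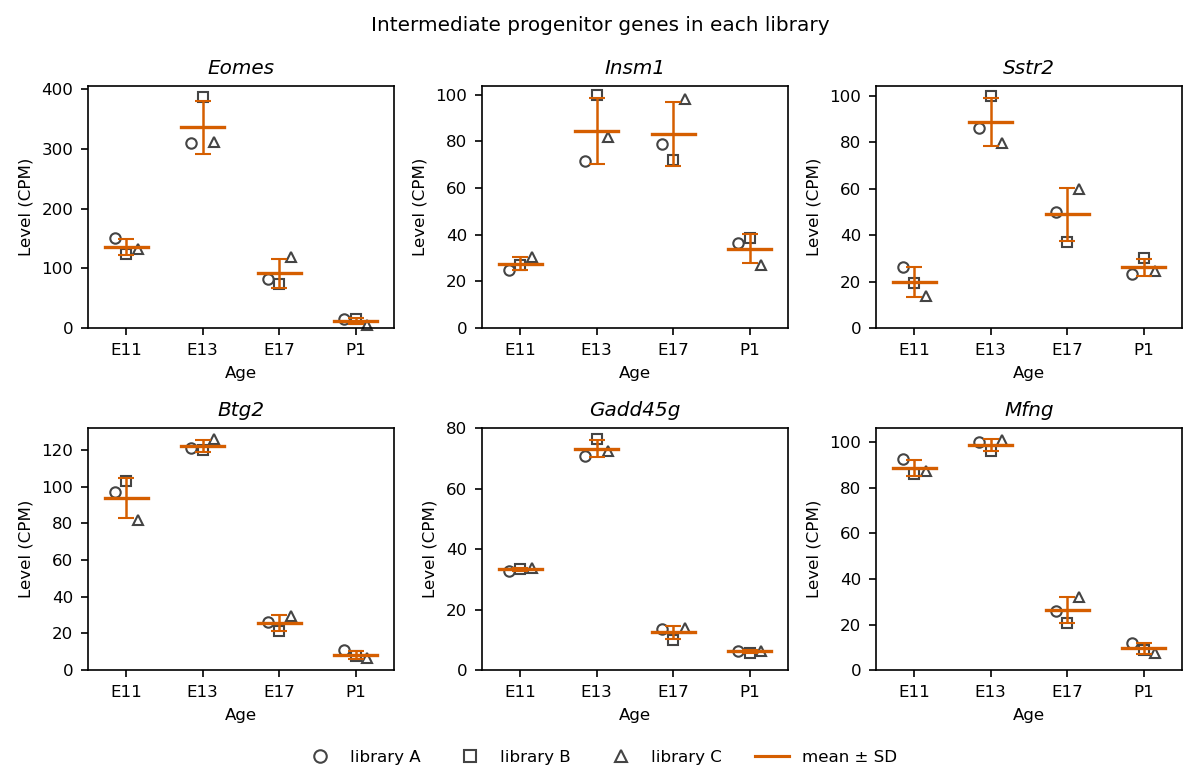
Level of each member (CPM, vertical axis from 0) in the 12 libraries by age (horizontal axis); open symbols are libraries A, B and C, and the orange line and bar are the mean and SD of an age. Eomes, Sstr2, Btg2, Gadd45g and Mfng had their highest mean at E13, while the E13 and E17 libraries of Insm1 overlapped.

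Eomes, the defining transcription factor of intermediate progenitors, peaked sharply at E13 and had fallen to a small share of that level at P1. In libraries A, B and C, the order kept throughout, the E11 cortex held 150, 124 and 132 CPM and the E13 cortex 309, 386 and 312 CPM. The E17 cortex held 82.3, 73.6 and 119 CPM and the P1 cortex 15.2, 15 and 5.85 CPM. No library of one age overlapped a library of a neighbouring age, and the lowest of all, P1 C, lay well below the other two P1 libraries. The mean rose from 135 ± 13.1 CPM at E11 to 336 ± 44 CPM at E13 (log2 fold change 1.31 ± 0.29, SE; edgeR adjusted p = 0.00577). It then fell to 91.6 ± 24 CPM at E17 (log2 fold change -1.87 ± 0.30; adjusted p = 0.000247) and to 12 ± 5.34 CPM at P1 (log2 fold change -2.94 ± 0.33; adjusted p = 6.42e-05). The P1 mean was 3.58% of the E13 mean, the lowest such share of the 6 members. The raw counts behind these levels ran from 245 in P1 C to 13764 in E13 B. The rise from E11 to E13 was lost when E11 C, E13 C and E17 A were left out together (log2 fold change 1.35, adjusted p = 0.0741), and stayed past the threshold with any 1 library left out.

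Insm1, the zinc finger repressor, also rose from E11 to E13, and its E17 libraries lay in the range of the E13 libraries. The E11 libraries held 25.1, 27 and 30.6 CPM and the E13 libraries 71.8, 100 and 81.8 CPM. At E17 they held 79, 72 and 98.3 CPM, all inside the E13 range, and at P1 36.6, 38.4 and 26.9 CPM. The rise from E11 to E13 was from 27.6 ± 2.82 to 84.6 ± 14.4 CPM (log2 fold change 1.62 ± 0.17; edgeR adjusted p = 2.26e-05). The E17 mean of 83.1 ± 13.6 CPM was 98.2% of the E13 mean, and the difference did not pass the threshold (log2 fold change -0.02 ± 0.16; adjusted p = 0.898). Its sign was positive without E13 B (0.12), without E17 A (0.03) and without E17 B (0.07). Insm1 fell between E17 and P1, to 34 ± 6.19 CPM (log2 fold change -1.29 ± 0.16; adjusted p = 7.54e-05). Between E11 and P1 the ranges overlapped and the difference did not pass the threshold (log2 fold change 0.30 ± 0.17; adjusted p = 0.115), but it did without P1 C (0.47, adjusted p = 0.0205) and in DESeq2 (0.34, adjusted p = 0.0422). In the other 21 of 23 alternative fits it did not pass.

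Btg2, the antiproliferative gene, was already high at E11 and fell steeply after E13. The E11 libraries held 97, 103 and 81.6 CPM and the E13 libraries 121, 120 and 126 CPM, so every E13 library lay above every E11 library. The E17 libraries held 26.2, 21.1 and 29.6 CPM and the P1 libraries 10.8, 7.71 and 6.66 CPM. The difference between E11 (94 ± 11.1 CPM) and E13 (122 ± 3.02 CPM) did not pass the threshold in edgeR (log2 fold change 0.38 ± 0.15; adjusted p = 0.0594). It passed in DESeq2 (adjusted p = 0.0353) and limma-voom (adjusted p = 0.0136). It also passed in edgeR without E17 B (adjusted p = 0.0401), without P1 A (adjusted p = 0.0238), without P1 C (adjusted p = 0.0481) and with the E11 and E13 libraries alone (adjusted p = 0.00788). In the other 17 of 23 alternative fits it did not pass. Its size stayed at 0.27 to 0.45 on the log2 scale over all alternatives. From E13 to E17 Btg2 fell to 25.6 ± 4.29 CPM (log2 fold change -2.25 ± 0.16; adjusted p = 7.52e-08). From E17 to P1 it fell to 8.38 ± 2.13 CPM (log2 fold change -1.62 ± 0.17; adjusted p = 1.66e-05), 6.86% of its E13 level.

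Gadd45g, the growth arrest gene, was highest at E13 and fell by more than it had risen, with the smallest relative spread of the 6 members at E11 and at P1. Its level was 32.9, 33.3 and 33.7 CPM at E11 and 71, 76.6 and 72.4 CPM at E13. The E17 libraries held 13.6, 9.99 and 14 CPM and those of P1 6.29, 5.72 and 6.47 CPM. The ranges of neighbouring ages lay far apart, and the libraries of E11 differed by less than 1 CPM. Gadd45g rose from 33.3 ± 0.409 to 73.3 ± 2.93 CPM between E11 and E13 (log2 fold change 1.14 ± 0.10; edgeR adjusted p = 1.54e-06). It fell to 12.5 ± 2.22 CPM at E17 (log2 fold change -2.54 ± 0.10; adjusted p = 8.94e-11), the steepest fall of the 6 members over this interval, and to 6.16 ± 0.39 CPM at P1 (log2 fold change -1.03 ± 0.11; adjusted p = 8.87e-06). Its E17 mean was 17.1% of the E13 mean.

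Mfng, the fringe enzyme, stood at 89.4% of its E13 level at E11 and fell after E13. The libraries held 92.6, 86.2 and 87.4 CPM at E11 and 100, 96.1 and 101 CPM at E13. They held 25.8, 20.8 and 32.3 CPM at E17 and 12, 8.92 and 7.64 CPM at P1. The E13 libraries all lay above the E11 libraries, but the difference between the means of 88.7 ± 3.37 and 99.2 ± 2.74 CPM did not pass the threshold (log2 fold change 0.16 ± 0.15; edgeR adjusted p = 0.418). With the E11 and E13 libraries alone it passed (0.16, adjusted p = 0.0369), but in the other 22 of 23 alternative fits it did not. Mfng fell to 26.3 ± 5.74 CPM at E17 (log2 fold change -1.91 ± 0.16; adjusted p = 3.26e-07) and to 9.53 ± 2.26 CPM at P1 (log2 fold change -1.48 ± 0.17; adjusted p = 2.92e-05), 9.61% of its E13 level.

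Sstr2, the somatostatin receptor, had the largest rise of the 6 between E11 and E13 and a gentler decline. Its level was 26.3, 19.5 and 13.8 CPM at E11, the widest relative spread of any member at that age, and 86.2, 100 and 79.7 CPM at E13. The E17 libraries held 49.9, 37.3 and 60.1 CPM and those of P1 23.5, 30.3 and 24.8 CPM. Libraries of neighbouring ages did not overlap, while the E11 and P1 libraries did. Sstr2 rose from 19.8 ± 6.28 to 88.7 ± 10.6 CPM between E11 and E13 (log2 fold change 2.16 ± 0.23; edgeR adjusted p = 4.43e-05). It fell to 49.1 ± 11.4 CPM at E17 (log2 fold change -0.85 ± 0.22; adjusted p = 0.00499) and to 26.2 ± 3.6 CPM at P1 (log2 fold change -0.91 ± 0.23; adjusted p = 0.00669). The P1 mean was 29.5% of the E13 mean. Between E11 and P1 the difference did not pass the threshold (log2 fold change 0.40 ± 0.23; adjusted p = 0.132), but it did without E11 A (0.65, adjusted p = 0.0181) and in DESeq2 (0.44, adjusted p = 0.0435). In the other 21 of 23 alternative fits it did not pass.

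Over the whole span from E11 to P1 the members divided into those that ended far below their starting level and those that did not. Eomes fell by 3.50 ± 0.33 on the log2 scale (edgeR adjusted p = 3.35e-06), Btg2 by 3.49 ± 0.17 (adjusted p = 1.37e-09), Mfng by 3.22 ± 0.17 (adjusted p = 2.58e-09) and Gadd45g by 2.43 ± 0.11 (adjusted p = 6.06e-11). In none of these 4 did an E11 library overlap a P1 library, and 43.0% of all tested genes were lower at P1 without overlap. Insm1 and Sstr2 were the members whose difference over this span did not pass the threshold. In the steps between neighbouring ages, 6 of 6 members were higher at E13 than at E11 without overlap (27.6% of all tested genes), 5 of 6 were lower at E17 than at E13 (38.3%) and 6 of 6 were lower at P1 than at E17 (31.5%).

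**Figure D2:**
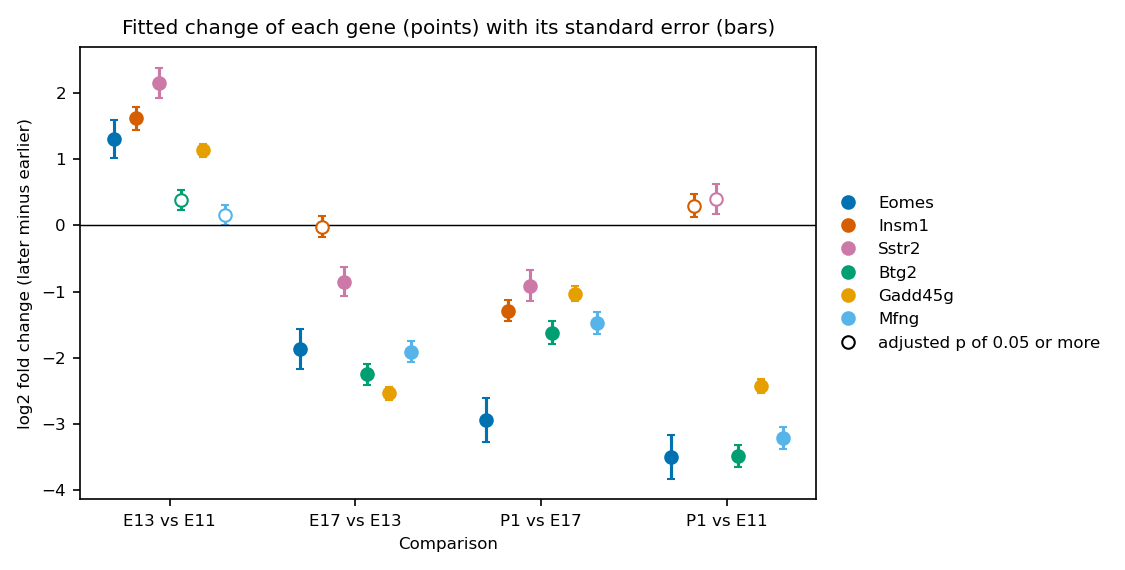
Fitted log2 fold change (vertical axis, later minus earlier age) of each member in the 4 comparisons (horizontal axis), with bars of 1 SE; open points did not pass an adjusted p of 0.05. Insm1 lies at -0.02 from E13 to E17 while the other members lie between -0.85 and -2.54.

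Per kilobase of transcript the order of the members turned over with age. Exon lengths were taken from GENCODE M21 (union of exons, 1173 bases for Gadd45g to 4155 bases for Eomes), so the order depends on that annotation. At E11, Btg2 (34.3 CPM per kb), Eomes (32.6), Mfng (31.3) and Gadd45g (28.4) lay close together with overlapping neighbours, except that Gadd45g lay below every Mfng library, and Sstr2 (9.26) and Insm1 (8.9) overlapped at a much lower level. At E13 the order was Eomes (80.8 CPM per kb, 74.3 to 93 over libraries), Gadd45g (62.5), Btg2 (44.5), Sstr2 (41.4), Mfng (34.9) and Insm1 (27.3). Of neighbours in that order, only Btg2 and Sstr2 had overlapping libraries. At E17, Insm1 (26.8), Sstr2 (22.9) and Eomes (22) overlapped at the top, followed by Gadd45g (10.7), Btg2 (9.34) and Mfng (9.27), which also overlapped. At P1, Sstr2 (12.2 CPM per kb) and Insm1 (11), which overlapped, were highest, then Gadd45g (5.25), while Mfng (3.36), Btg2 (3.05) and Eomes (2.89) overlapped at the bottom. Eomes thus went from the highest of the 6 at E13 to the lowest mean at P1.

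Ratios of counts within a library do not depend on scaling and describe the same turnover. The log2 ratio of Insm1 to Eomes was -2.58, -2.20 and -2.11 in the E11 libraries and -2.10, -1.95 and -1.93 at E13. The E17 libraries had -0.06, -0.03 and -0.27 and those of P1 1.27, 1.35 and 2.20. Relative to Eomes, Insm1 was thus higher in each E17 library than in any E13 library, and higher again in each P1 library. The log2 ratio of Sstr2 to Eomes had means of -2.81 ± 0.40, -1.92 ± 0.07, -0.90 ± 0.15 and 1.24 ± 0.75 (SD, n = 3) from E11 to P1. Neither of these 2 ratios was tested.

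Pax6 marks radial glia and Tbr1 marks young projection neurons, so their ratios to Eomes set the intermediate progenitor gene against the states before and after it. The log2 ratio of Eomes to Pax6 was -0.08, -0.35 and -0.29 at E11, 0.89, 1.16 and 0.78 at E13, and 1.19, 1.29 and 1.48 at E17. The P1 libraries had -0.50, -0.27 and -1.37, which put P1 B among the E11 libraries and P1 A and P1 C below them. The mean moved by 1.19 between E11 and E13, by 0.38 between E13 and E17 and by -2.03 between E17 and P1. The log2 ratio of Eomes to Tbr1 had means of 0.43 ± 0.14, 0.62 ± 0.03, -1.71 ± 0.19 and -4.10 ± 0.75 from E11 to P1, and moved by 0.19, -2.33 and -2.39. In all 6 comparisons the libraries of the ages did not overlap, and the two-sided exact permutation test gave p = 0.1 each time (0.1 after Benjamini-Hochberg adjustment over the 6), the smallest value that 3 libraries against 3 can give, so no ratio could pass the threshold. From E13 to E17 the ratio to Pax6 was thus higher in each library and that to Tbr1 lower in each.

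**Figure D3:**
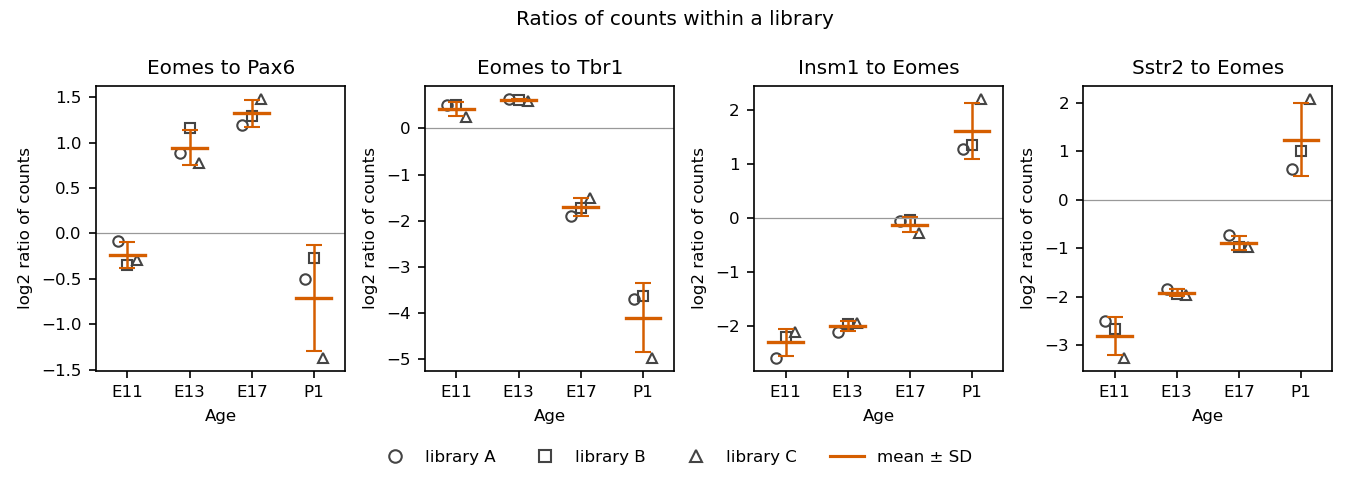
Log2 ratio of counts (vertical axis) within each library by age (horizontal axis) for 4 pairs of genes, with libraries A, B and C as open symbols and the mean and SD in orange. The ratio of Eomes to Pax6 was highest at E17 (1.32), that of Eomes to Tbr1 dropped to -4.10 at P1, and those of Insm1 and Sstr2 to Eomes crossed 0 between E17 and P1.

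Among the other genes of the neurogenic cascade, those that passed the threshold rose between E11 and E13 and fell in the later intervals. Of 9 cascade genes tested, 6 rose and none fell between E11 and E13, all 9 fell between E13 and E17, and none rose and 7 fell between E17 and P1. Over all tested genes 22.6% rose in the first interval, and 37.0% and 25.9% fell in the next ones. The median log2 fold changes of the 9 were 0.50, -1.80 and -1.29. Among proneural factors upstream of Eomes, Neurog2 had means of 132, 249, 35.9 and 2.69 CPM at the 4 ages, and rose by 0.92 and then fell by 2.79 and by 3.76 on the log2 scale (edgeR adjusted p = 0.00864, 1.61e-06 and 6.66e-06). Neurog1 had means of 12.7, 18, 0.269 and 0.00859 CPM and was changed in the same directions (adjusted p = 0.0398, 3.24e-10 and 0.000534). Neurod1 and Neurod4, which act downstream of the Neurog factors, both rose to E13 and fell after it. Neurod1 had means of 24.7, 66.8, 46.4 and 18.9 CPM (adjusted p = 7.61e-05, 0.016 and 0.00012), and its E17 level stayed closer to the E13 level than that of Neurog2. Neurod4 had means of 4.79, 9.17, 3.12 and 0.553 CPM (adjusted p = 0.0156, 0.000275 and 9.43e-05). Rnd2, a small GTPase of migrating neurons, rose from 113 to 256 CPM and fell to 73.3 and 50.4 CPM (adjusted p = 3.64e-06, 6.5e-09 and 0.00106).

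Some cascade genes did not pass the threshold in 1 or more of these intervals. Nhlh1, a factor of newborn neurons, held 57.3 and 75.5 CPM at E11 and E13, a difference that did not pass (adjusted p = 0.0987), and then fell to 4.94 and 0.428 CPM (adjusted p = 8.76e-09 and 8.07e-06). The Notch ligand Dll1, which proneural factors switch on, held 150 CPM at both E11 and E13 (adjusted p = 0.997) and fell to 35.7 and 23 CPM (adjusted p = 3.8e-11 and 1.95e-05). Dll3 held 14.2 and 16.8 CPM (adjusted p = 0.232), fell to 7.17 CPM at E17 (adjusted p = 1.09e-05) and stood at 6.8 CPM at P1 (adjusted p = 0.724). Hes6, a member of the Hes family known to counter Hes1, rose from 78.5 to 108 CPM and fell to 63.8 CPM (adjusted p = 1.51e-05 and 1.21e-08), with 62.2 CPM at P1 (adjusted p = 0.585). The log2 ratio of Eomes to Neurog2 had means of 0.04, 0.42, 1.35 and 2.16 from E11 to P1, with an SD of 0.01 between the E17 libraries.

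Each member was also set against its paralogs, of which 13 of 15 had enough counts to test; Tbx21 and Sstr5 stayed at or under 0.252 CPM in every age mean. Of the 13, 6 rose and 2 fell between E11 and E13, 4 rose and 9 fell between E13 and E17, and 4 rose and 6 fell between E17 and P1. Among all tested genes 22.6, 36.8 and 24.0% rose in these intervals, and 17.5, 37.0 and 25.9% fell. Tbr1, the T-box factor of young deep-layer neurons, rose from 101 to 219 and then to 296 CPM at E17 (edgeR adjusted p = 4.18e-05 and 0.00779), where Eomes fell, and it fell to 190 CPM at P1 (adjusted p = 0.00131). Insm2, the closest relative of Insm1, had means of only 0.611, 1.14, 0.624 and 0.153 CPM, and its falls after E13 passed the threshold (adjusted p = 0.029 and 0.00286) while its difference between E11 and E13 did not (adjusted p = 0.0526).

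The other somatostatin receptors were lower than Sstr2 per kilobase at each embryonic age, and 2 of them rose through to birth. Sstr1 had means of 0.812, 1.72, 11.4 and 24.1 CPM and rose in every interval (edgeR adjusted p = 0.0023, 9.97e-09 and 8.06e-05), and per kilobase it went from 0.397 to 11.8 CPM per kb, overlapping Sstr2 (12.2) at P1. Sstr4 rose in every interval as well, from 0.161 to 0.33, 0.787 and 3.97 CPM (adjusted p = 0.0377, 0.00125 and 4.37e-06). Sstr3 rose with Sstr2 from 1.03 to 9.27 CPM (adjusted p = 6.58e-06) and fell to 4.16 CPM at E17 (adjusted p = 0.00153), with 5.35 CPM at P1 (adjusted p = 0.281). The ligand Sst, made by a class of interneurons, had means of 0.0311, 3.86, 25.8 and 29.4 CPM and rose in the first 2 intervals (adjusted p = 6.95e-06 and 1.13e-06). Sstr2 was thus at its highest at E13, when Sst was low. Cort, the gene of the related peptide cortistatin, reached 1.54 CPM at P1 from 0.701 CPM at E17 (adjusted p = 0.000725).

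Among the relatives of Btg2, Btg1 had means of 58.6, 98.4, 66.8 and 38.2 CPM. It rose between E11 and E13 by 0.75 on the log2 scale (edgeR adjusted p = 5.94e-05), where Btg2 had 0.38 and did not pass, and it fell by 0.56 and 0.81 in the next intervals (adjusted p = 0.000148 and 2.77e-05), where Btg2 fell by 2.25 and 1.62. Tob1 (30.2, 37.7, 27.6 and 16.2 CPM) and Tob2 (38.2, 40.5, 32.4 and 15.9 CPM) fell in both intervals after E13 (adjusted p from 8.14e-06 to 0.0125), and neither passed between E11 and E13 (adjusted p = 0.067 and 0.545). Btg3 was low, at 0.685, 0.555, 0.245 and 0.0613 CPM, and fell after E13 (adjusted p = 0.0217 and 0.0248). In the GADD45 family, Gadd45a and Gadd45b went down where Gadd45g went up: Gadd45a fell from 12.6 to 6.93 CPM (adjusted p = 0.000436) and Gadd45b from 4.55 to 3.17 CPM (adjusted p = 0.0301) between E11 and E13. Both fell again by E17, to 2.07 and 1.19 CPM (adjusted p = 3.8e-07 and 1.81e-05), and did not pass between E17 and P1 (adjusted p = 0.319 and 0.218).

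The 3 fringe enzymes took 3 courses. Lfng, known from radial glia, held 68.8 and 60.7 CPM at E11 and E13 (edgeR adjusted p = 0.0785), fell to 17.8 CPM at E17 (adjusted p = 2.74e-10) and rose slightly to 21.1 CPM at P1 (log2 fold change 0.25 ± 0.08; adjusted p = 0.022), where Mfng fell. Rfng rose in every interval, with means of 23.1, 33.2, 69.7 and 94 CPM (adjusted p = 0.00118, 3.13e-07 and 0.00209). Per kilobase Rfng lay below Mfng at E11 (9.3 against 31.3 CPM per kb) and E13 (13.3 against 34.9) and above it at E17 (28 against 9.27) and P1 (37.8 against 3.36), with no overlap of libraries at any age.

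**Figure D4:**
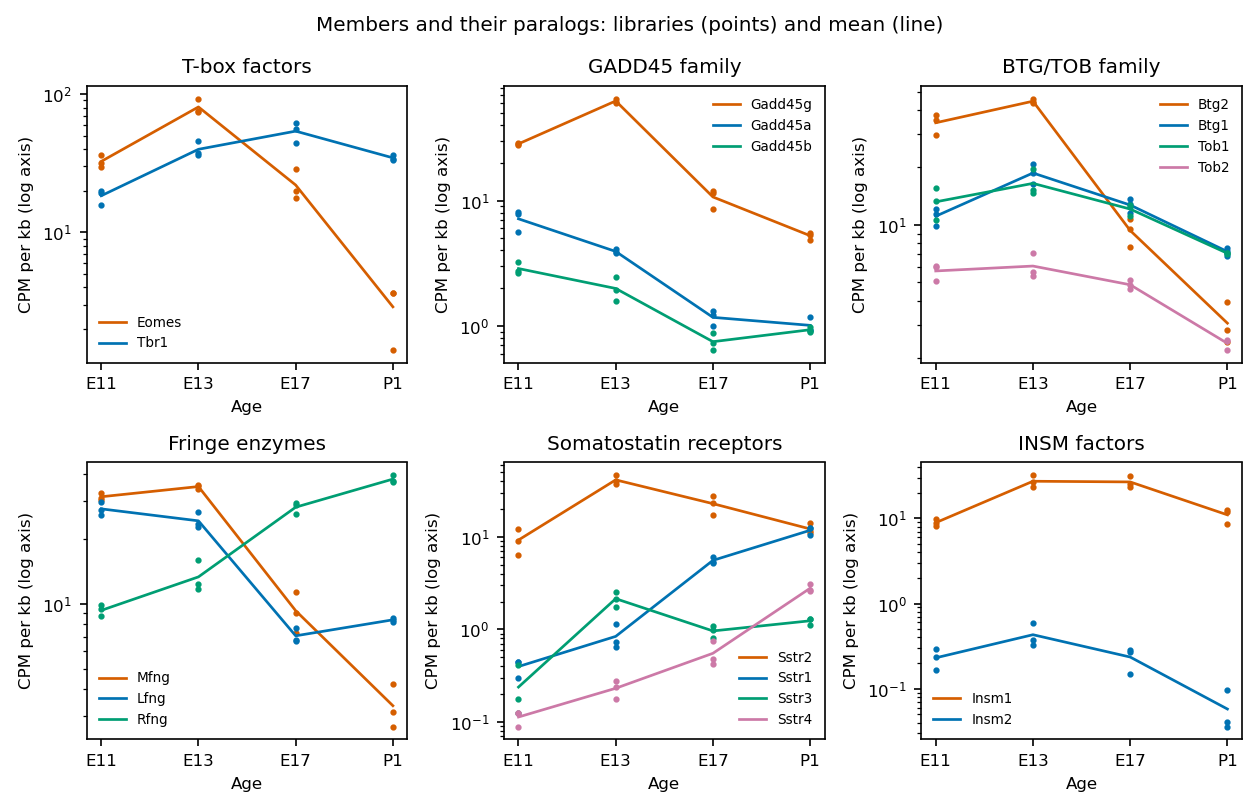
CPM per kb of exon (vertical log axis) of the members and their tested paralogs except Btg3, by age (horizontal axis), with libraries as points and the mean as a line. Tbr1 lay below Eomes at E13 (39.9 against 80.8) and above it at E17 (54 against 22), Rfng passed Mfng by E17, Sstr1 came up to Sstr2 at P1, and Gadd45g had an E13 peak that Gadd45a and Gadd45b lacked.

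Most genes of the Notch pathway, in which Mfng acts, fell between E13 and E17, and they went both ways between E17 and P1. Of 14 other Notch genes, which include Dll1, Dll3, Lfng and Rfng above, 3 rose and 2 fell between E11 and E13, 2 rose and 12 fell between E13 and E17, and 5 rose and 4 fell between E17 and P1. In these intervals 22.6, 36.8 and 24.0% of all tested genes rose, and 17.5, 37.0 and 25.9% fell. The receptor Notch2 rose by 0.43 on the log2 scale between E11 and E13 (edgeR adjusted p = 0.0119), beside Rfng, while the ligand Jag1 fell by 0.90 (adjusted p = 5.25e-05) and the receptor Notch3 by 0.42 (adjusted p = 0.000315). Between E13 and E17 the target genes Hes1 and Hey1 fell most, by 3.27 and 2.45 (adjusted p = 1.59e-10 and 5.52e-12), from 47.5 to 4.92 and from 99.4 to 18.2 CPM. The ligand Jag2 rose by 1.93 (adjusted p = 9.83e-11), from 13.7 to 52.3 CPM. Between E17 and P1 Jag2 rose further, by 0.51 (adjusted p = 9.28e-05), and Jag1 and Notch2 fell by 1.07 and 0.93 (adjusted p = 1.56e-05 and 6.83e-05).

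Insm1 represses genes together with a complex of the demethylase Kdm1a, CoREST proteins and histone deacetylases. Of these, Kdm1a rose by 0.33 on the log2 scale between E11 and E13 (edgeR adjusted p = 0.00224), and Hdac1 fell by 0.30 (adjusted p = 0.00627). Between E13 and E17, where Insm1 did not change past the threshold, Hdac1 fell from 105 to 30.7 CPM (log2 fold change -1.77 ± 0.08; adjusted p = 1.82e-10) and Rcor2 from 277 to 110 CPM (log2 fold change -1.33 ± 0.14; adjusted p = 4.23e-06). Kdm1a, at 289 and 298 CPM, did not pass (adjusted p = 0.589). Between E17 and P1 Rcor2 fell by 1.16 and Rcor1 by 0.61 (adjusted p = 5.82e-05 and 4.19e-05). Counting Sst and Cort, 2 of these 7 partner genes rose and 1 fell between E11 and E13, 2 rose and 3 fell between E13 and E17, and 1 rose and 5 fell between E17 and P1. The shares of all tested genes that rose were 22.6, 36.8 and 24.0%, and those that fell 17.5, 37.0 and 25.9%.

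Btg2 is also known as a p53 target and as an immediate early gene, and Gadd45g as a stress-induced gene, so both lists were read beside them. Of 9 other p53 targets, 2 rose and 1 fell between E11 and E13, 2 rose and 4 fell between E13 and E17, and 4 rose and 3 fell between E17 and P1. Over all tested genes 22.6% rose and 17.5% fell in the first interval, 36.8% and 37.0% in the second, and 24.0% and 25.9% in the third. Trp53inp1 moved with Eomes, Insm1, Sstr2 and Gadd45g in the first and last intervals: it rose from 52.9 to 117 CPM (edgeR adjusted p = 0.000107) and fell from 96.7 to 28.5 CPM (adjusted p = 5.65e-06). In the same intervals Mdm2 rose by 0.22 and fell by 0.49 on the log2 scale (adjusted p = 0.023 and 8.09e-05). Sesn2 fell by 0.57 between E11 and E13 and by 1.05 between E13 and E17 (adjusted p = 0.00106 and 1.64e-06), and Cdkn1a fell by 0.97 in the second interval (adjusted p = 0.000967). The proapoptotic gene Bbc3 rose from 4.51 to 20.4 CPM between E13 and E17 and to 32.6 CPM at P1 (adjusted p = 3.86e-10 and 6.55e-05), Ccng1 rose by 0.37 between E13 and E17 (adjusted p = 0.00386), and Phlda3 rose by 0.76 between E17 and P1 (adjusted p = 0.00154).

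Of 7 tested immediate early genes of 8, 1 rose and 1 fell between E11 and E13, 2 rose and 3 fell between E13 and E17, and 3 rose and 1 fell between E17 and P1. Among all tested genes 22.6, 36.8 and 24.0% rose in these intervals, and 17.5, 37.0 and 25.9% fell. Jun had a course like that of Eomes, Gadd45g and Sstr2 up to E17: it rose from 80.6 to 138 CPM and fell to 43 CPM (edgeR adjusted p = 5.59e-07 and 3.53e-11). Atf3 fell by 0.75 on the log2 scale between E11 and E13 (adjusted p = 0.00693), and Ier2 by 1.74 between E13 and E17 (adjusted p = 1.31e-10). Junb and Dusp1 rose by 0.57 and 0.56 between E13 and E17 (adjusted p = 0.0065 and 0.0013), and Dusp1 fell by 0.83 by P1 (adjusted p = 0.000151). Fos and Egr1, the classical early response genes, were low in the embryo and rose at P1, Egr1 from 4.94 to 31.7 CPM (adjusted p = 1.61e-06) and Fos from 0.78 to 2.92 CPM (adjusted p = 1.88e-05), where Btg2 fell.

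Genes of other cell states gave the frame for these courses. The summed level of 12 cell division genes was 4028 to 4184 CPM in the E11 libraries, 3235 to 3752 at E13, 496 to 681 at E17 and 249 to 272 at P1; 4 of the 12 fell between E11 and E13 and all 12 fell in each later interval. The sum of 11 radial glia genes was 2894 to 2968, 2893 to 2968, 1387 to 1580 and 1138 to 1191 CPM, and that of 10 neuronal genes, of which several such as Tubb3, Dcx, Stmn2 and Map2 are shared by all neurons, 1415 to 1584, 3096 to 3867, 11028 to 11584 and 10936 to 11171 CPM. The 4 members that rose between E11 and E13 did so while none of the cell division genes rose. The radial glia genes went both ways, with 3 rising and 3 falling of 11 between E11 and E13, 3 rising and 7 falling between E13 and E17, and 1 rising and 5 falling between E17 and P1. Beside these counts, 22.6, 36.8 and 24.0% of all tested genes rose in the same intervals, and 17.5, 37.0 and 25.9% fell. From E13 to E17 Gadd45g, Btg2, Mfng and Eomes declined to between 17.1 and 27.3% of their E13 means, and Insm1 and Sstr2 stood at 98.2 and 55.3%. Fabp7, Slc1a3 and Ddah1, the 3 radial glia genes that rose in this interval, held 457, 224 and 154 CPM at E17. The 7 that fell stood at 10.4% (Hes1) to 34.5% (Sox2) of their E13 means, so the radial glia sum mixes both courses. The log2 ratio of Insm1 to Mki67, a gene of dividing cells, had means of -4.97, -3.27, -0.69 and -0.41 from E11 to P1, and that of Eomes to Mki67 -2.68, -1.28, -0.57 and -2.02.

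**Figure D5:**
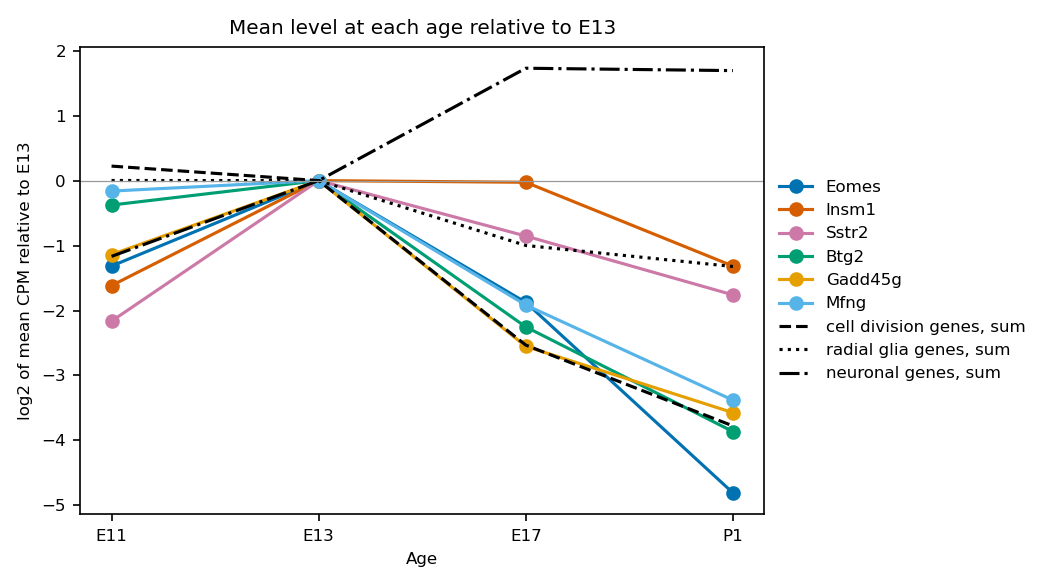
Mean CPM relative to the E13 mean (vertical axis, log2) by age (horizontal axis) for the 6 members (coloured points and lines) and for the summed levels of cell division, radial glia and neuronal genes (black lines). Gadd45g and Btg2 lay near the cell division sum after E13, Eomes was lowest at P1, and Insm1 lay at its E13 level at E17. The radial glia sum mixes genes that rose and genes that fell after E13.

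Markers of other tissues and cell types also moved with age. The sum of 9 markers of GABAergic and ventral cells was 3.92 to 45.9 CPM at E11 and 21.1 to 63.7 CPM at E13, highest in library C at both ages, and 318 to 385 CPM at E17 and 337 to 348 CPM at P1. All 9 rose between E13 and E17, where 36.8% of all tested genes rose. Insm1, a gene that progenitors of the ventral telencephalon use too, did not change past the threshold in that interval. In the E17 libraries Insm1 stood at 79, 72 and 98.3 CPM, where this sum was 385, 318 and 376 CPM. Red cell markers summed to 5742 to 16478 CPM at E11 and 782 to 1762 CPM at E13, and meningeal markers to 1177 to 1427 and 791 to 1085 CPM, against at most 344 and 52.5 CPM at E17 and P1. The sums of glial markers rose between E17 and P1. That of 5 oligodendrocyte lineage markers was 101 to 166 CPM at E17 and 300 to 323 CPM at P1, with 5 of 5 rising. That of 6 astrocyte markers was 165 to 253 CPM and 343 to 378 CPM, with 4 of 6 rising, where 24.0% of all tested genes rose. Between E13 and E17, where 36.8% of all tested genes rose, 5 of 5 and 5 of 6 of these markers rose. The astrocyte sum did not rise with them, at 198 to 242 CPM at E13, and Gja1 fell from 178 to 20.3 CPM. Choroid plexus markers summed to 43 to 386 CPM at E11 and E13 and at most 8.99 CPM later. The part of these cell types in the members' levels was not tested. With the 10 red cell genes removed from the counts no member's call changed. That step leaves the cells sampled as they were, so it cannot show their part in these levels. Neighbouring comparisons share the 3 libraries of the age between them, so their values are not independent. All rest on the same 3 libraries per age, with total counts of 28173745 to 45858712 per library.

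Within an age the members deviated together at E17 and only in part at the other ages. At E17 library C was highest and library B lowest for all 6 members, with deviations from the age mean of 0.17 to 0.41 and -0.37 to -0.19 on the log2 scale. The sum of the 12 cell division genes was also highest in E17 C (681 CPM) and lowest in E17 B (496 CPM). The neuronal sum had the same order (11584 CPM in E17 C and 11028 CPM in E17 B), while the radial glia sum was highest in E17 B (1580 CPM). At P1 library C was lowest for Eomes (-0.91), Insm1 (-0.32), Btg2 (-0.30) and Mfng (-0.29), but not for Sstr2 or Gadd45g. At E13 library B was highest for Eomes, Insm1, Sstr2 and Gadd45g, by 0.06 to 0.26, and lowest for Btg2 (-0.03) and Mfng (-0.05). This library also had the highest sum of neuronal genes (3867 CPM) and the lowest cell division sum (3235 CPM). At E11 the members had no shared order: Sstr2 was highest in library A (0.45) and lowest in library C (-0.48), while Insm1 was lowest in A (-0.13) and highest in C (0.16). With 3 animals per age these deviations were not tested.

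Over the 12 libraries Btg2, Mfng, Gadd45g and Eomes had like courses, with r of at least 0.913 between any pair of them, and Insm1 and Sstr2 stood apart from these 4. Pearson's r of log2 CPM between Btg2 and Mfng was 0.997, and each ranked 2 among the 11372 other genes of at least 5 CPM ordered by likeness to the other. Btg2 and Gadd45g reached 0.966, Gadd45g and Mfng 0.955, and Eomes reached 0.938 with Btg2, 0.932 with Mfng and 0.913 with Gadd45g. Many other genes were more alike: ordered by likeness to Eomes, Btg2 ranked 307, Mfng 371 and Gadd45g 599, and Eomes ranked 1785 for Btg2 and 2112 for Mfng. Insm1 and Sstr2 reached 0.880, with Sstr2 at rank 102 for Insm1 and Insm1 at rank 46 for Sstr2, while Insm1 had r of 0.514 with Eomes and 0.191 with Mfng. Outside the 6, the genes most like Eomes were Ing3 (0.995), Hbp1 (0.993) and G2e3 (0.992). Those most like Insm1 were Rasgef1b (0.977), Mex3b (0.969) and Scrt2 (0.965), and those most like Sstr2 were Coro2b (0.968), Ttll5 (0.957) and Nfib (0.948). Btg2 was most like Hist2h2be (0.998), Twsg1 (0.997) and Mllt10 (0.997), Gadd45g most like Fam110a (0.997), Ap4m1 (0.992) and Pgpep1 (0.989), and Mfng most like Tfdp2 (0.998), Tgif2 (0.997) and Gli2 (0.997). These correlations describe likeness over the same 12 libraries at 4 ages, in which most genes change with age, and carry no test.

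A high r did not mean a change of like size. Eomes fell from 336 to 12 CPM between E13 and P1, while Ing3 had means of 29.1, 34.7, 26 and 16.6 CPM over the 4 ages and Hbp1 62.7, 96.4, 60.3 and 26.4 CPM. Rasgef1b, at 14.9, 70.6, 69.5 and 24.1 CPM, had like means at E13 and E17, as Insm1 did with 27.6, 84.6, 83.1 and 34 CPM. Nfib, at 308, 971, 802 and 374 CPM, shared the early rise of Sstr2. Tgif2 (90.9, 93.9, 21.5 and 8.45 CPM) and Gli2 (77.3, 81.1, 18.5 and 6.52 CPM) followed Mfng in size as well.

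In the GENCODE M21 annotation the members lie on chromosomes 9 (Eomes), 2 (Insm1), 11 (Sstr2), 1 (Btg2), 13 (Gadd45g) and 15 (Mfng), and 4 of the 6 overlap no other gene. Eomes shares 118 exon bases with the antisense transcript Gm33460, which had 42 counts over all 12 libraries. Sstr2 lies inside Slc39a11, a zinc transporter gene on the opposite strand with 11239 counts over all libraries, but shares 0 exon bases with it. The sources used here do not give the strand setting of the counting, so reads from unspliced RNA of that gene cannot be told apart from those of Sstr2.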

How the data were processed

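Poly(A)+ RNA of 12 mouse cortices was sequenced as stranded single reads, per the labels' protocols. The authors deposited raw read counts per Ensembl gene, without normalization, 1 table per library. STAR 2.5.2b, HTSeq 0.5.3, DESeq2 1.8.1, bcl2fastq 2.18 and SAMtools appear in the submitters' processing notes, without their roles. The build, annotation and strand mode, not given in the sources used here, could change the counts of overlapping genes. The tests used edgeR 4.0.16 under R 4.3.3. Of all identifiers, 17847 passed filterByExpr by age (minimum count 10), and 32753 did not. Libraries were scaled by TMM (factors 0.92 to 1.09), and the robust quasi-likelihood fit took in all 12 libraries with a term for each age. P-values are two-sided and adjusted over all tested genes, with a threshold of 0.05. DESeq2 1.42.0 and limma 3.58.1 (voom) served as alternatives. The fit was also run on simulated counts in which few genes changed. Unlike these data, that run could not show how the fit behaves where most genes change. Ratios used counts plus 0.5. Likeness used log2 CPM (prior count 2) among genes of at least 5 CPM.

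Libraries of an age differed far beyond counting noise (10.2 to 29.8 in chi-squared per degree of freedom), and each was kept as 1 replicate. The members and lists were chosen with earlier results of these data known. By rule, the text names every cascade gene and paralog (1 cascade gene is not reported here and was left out of the counts), and from the other lists the 2 largest rises and falls past the threshold per neighbouring comparison at 1 CPM or more. For each member it names the 3 genes of highest r, leaving out members, unnamed transcripts and sex-linked genes. Other genes are named as markers.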

Additional observations from a re-analysis of the deposited data

How the results depend on the processing

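Each fold change of a member was recomputed under 23 alternatives, which gave 552 values, of which 536 kept their direction and their side of the threshold. All 4 changes of sign concerned Insm1 between E13 and E17, whose log2 fold change was 0.01 without a filter on low counts, 0.12 without E13 B, 0.03 without E17 A and 0.07 without E17 B. With 1 library left out it ran from -0.16 to 0.12. With 1 library left out, the number of members past the threshold was 4 or 5 from E11 to E13, 5 from E13 to E17, 6 from E17 to P1 and 4 or 5 from E11 to P1. Over all alternatives it was 3 to 6, 5, 6 and 4 to 6. Scaling by library size alone moved the median log2 fold change of all genes by -0.18 from E13 to E17 and by -0.23 from E11 to P1, upper-quartile factors moved the latter by -0.10, and no member changed its call under either. With library size alone 39.8% of the genes called between E13 and E17 were higher, against 49.8%. With upper-quartile factors 47.3% of those called between E11 and E13 were higher, against 56.4%, so that more genes fell than rose. With a replicate block for the letters A, B and C, 4, 5, 6 and 4 members passed in the same comparisons, and 6756, 12975, 8542 and 14582 of all genes, against 7155, 13174, 8913 and 14693 without it. The letters did not pair the libraries: deviations correlated from -0.34 to 0.33 between libraries of the same letter, over 0.1 in 4 of 18 pairs, and 5 of 12 libraries correlated best with their own letter. Under every alternative tried, each of the 6 differences of the Eomes ratios shifted from its main value by less than the larger SD of the ages compared. The block by letter could not move them, because the mean of the differences within letters equals the difference of the means. The lowest count of a member in any library was 222, for Gadd45g in P1 B.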
